A study of Mus musculus with 6 samples.

Results

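The LDL receptor family was followed in A316 cells, a mouse primary adenocarcinoma line that lacks the transcription factor C/EBP alpha through a knockout of Cebpa. The 9 genes described here are Vldlr, Lrp1, Lrp2, Lrp4, Lrp8, Lrp10, Lrp11, Lrp12 and Sorl1, out of 19937 named genes on the array. Gene names come from the platform annotation, and each gene was represented by a probe set selected on its brightness, the highest mean of all 6 arrays among probe sets with a single gene symbol. Each of the 9 had only 1 such probe set, so this step left nothing to choose. The list itself was drawn up with earlier results of these arrays known, Vldlr because of its rise, so the values of Vldlr stand as a description without a test.

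RNA from the cells was measured on 6 Affymetrix arrays, 3 after PTC-209, a compound described as acting through Bmi inhibition, dissolved in 0.5% DMSO, and 3 after 0.5% DMSO alone. All 6 arrays are of the knockout line, so nothing here compares cells with and without C/EBP alpha. How much compound was given, and for how long, is not stated in the labels. Values are log2 expression; a difference is PTC-209 minus DMSO, and group values are mean ± SD of 3 arrays. Nothing in the labels ties the 3 arrays of a group to 3 cultures, so the p-values reflect the spread of these samples alone, and that spread may be technical.

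Receptors of this family are single-pass membrane proteins that carry ligand-binding repeats outside the cell and short sorting signals inside it. The core members take up lipoproteins, proteases bound to their inhibitors and many other ligands into endosomes, release them there and return to the surface. Vldlr and Lrp8 also act as signalling receptors for the secreted glycoprotein Reelin, while Lrp4 serves the matrix protein agrin. Transcription of Vldlr is known to respond to the stress factor ATF4, to hypoxia-inducible factor 1 and to the nuclear receptor PPAR gamma, which is why those genes are described alongside the receptors.

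The sequence ahead of Vldlr is shown because this gene had by far the largest difference of the 9 and because a binding motif of ATF4 was among those searched. RefSeq promoter windows (build GRCm38.p6, 250 bases before to 50 after a transcript start) were found for 7 of the 9 genes, 11 windows in all, with 2 for Vldlr. Lrp4 and Lrp12 were not matched. The first line is the stretch that ends just before the annotated start of Vldlr, at chr19:27216234-27216479 on the plus strand. The second is a stretch of 30 bases inside the window of the other Vldlr start, 536 bases downstream of the first, at chr19:27216809-27216838, within the annotated gene. Capitals mark a motif match.

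Vldlr, before the first start: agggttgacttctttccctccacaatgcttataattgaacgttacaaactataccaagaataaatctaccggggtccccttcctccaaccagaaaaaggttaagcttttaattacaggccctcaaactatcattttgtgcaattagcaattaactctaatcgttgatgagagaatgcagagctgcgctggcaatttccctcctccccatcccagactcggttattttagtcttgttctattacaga
Vldlr, before the second start: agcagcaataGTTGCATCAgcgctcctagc

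The capitals in the second line match the C/EBP-ATF response element (searched as TGATGNAAN on both strands), on the minus strand, and begin at position -201 from the second start. That motif was in 1 of the 11 windows of the family and in 3.95% of 32851 promoter windows of the same length. The first Vldlr stretch held 0 matches to the 4 motifs searched. The other motifs were the hypoxia response core ACGTG, found in 3 of the 11 windows and 19.6% of all, and the antioxidant response core TGACNNNGC, in 2 and 12.4%. The E-box CACGTG, which contains the hypoxia core, was in 1 window of the family and 7.15% of all. A match is a description of the letters and not a site of binding. The windows of the 7 matched genes had a median GC content of 62.7%, against 52.7% over all windows. The first Vldlr window had 43% GC and the second 68%.

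Among the receptors of lipoproteins and Reelin, Vldlr was far higher with PTC-209 and its relative Lrp8 slightly lower. Vldlr, a receptor of lipoproteins rich in triglyceride, read 6.01, 5.65 and 5.54 on the DMSO arrays and 9.04, 8.93 and 8.83 on the PTC-209 arrays. The groups were widely separated, and the lowest treated array lay far above the highest control. The group values were 5.73 ± 0.24 and 8.93 ± 0.10, a log2 difference of 3.20 (SE 0.132, 95% interval 2.90 to 3.50), or 9.21-fold. Among all named genes only 0.161% had a larger difference in either direction. An array of cultured cells reads RNA per sample, so a change in the share of a cell type and a change in RNA per cell cannot be told apart.

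Lrp8, also called ApoER2, shares Reelin as a ligand with Vldlr. It read 7.31, 7.20 and 7.22 with DMSO and 7.17, 6.93 and 6.85 with PTC-209. The treated arrays all lay below the controls, the nearest by a small margin. The log2 difference of -0.26 (SE 0.109, 95% interval -0.50 to -0.01) did not pass the threshold, an adjusted p under 0.05 in limma with Benjamini-Hochberg adjustment over all 28192 probe sets (adjusted p = 0.129).

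**Figure D1:**
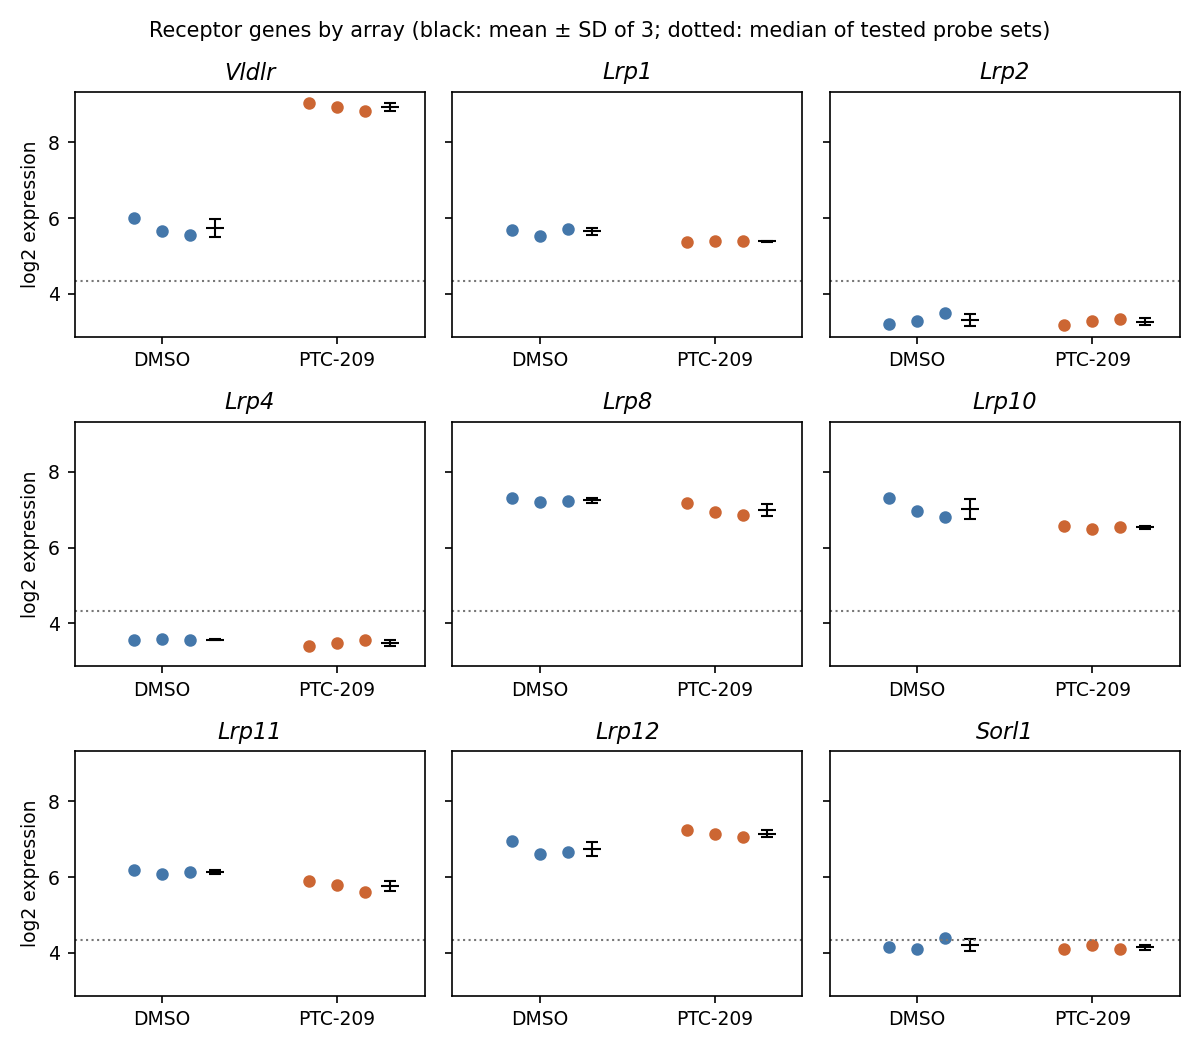
Log2 expression of the 9 receptor genes on each array (y axis, same scale in every panel) for DMSO and PTC-209 (x axis); points are arrays, black marks the mean ± SD of 3 arrays, and the dotted line is the median of the tested probe sets, 4.33. Vldlr moved from 5.73 to 8.93, while the other 8 genes shifted by less than 0.5 in either direction.

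The giant endocytic receptors showed small differences. Lrp1, which clears proteases bound to inhibitors and remnant lipoproteins, read 5.69, 5.53 and 5.72 with DMSO and 5.37, 5.39 and 5.39 with PTC-209. Its groups did not overlap, and the treated arrays were almost identical to each other. The log2 difference was -0.27 (SE 0.094, 95% interval -0.48 to -0.05, limma adjusted p = 0.0745), short of the threshold. Lrp2, or megalin, the uptake receptor of absorptive epithelia such as the kidney tubule, lay below the median of the tested probe sets (4.33) on all 6 arrays. It read 3.19, 3.27 and 3.49 with DMSO and 3.17, 3.27 and 3.34 with PTC-209, so the groups overlapped. Its log2 difference was -0.06 (95% interval -0.30 to 0.19, limma adjusted p = 0.800).

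Lrp4, the co-receptor of agrin at the neuromuscular junction, was dim as well. It read 3.55, 3.58 and 3.56 with DMSO and 3.40, 3.47 and 3.56 with PTC-209, and the groups overlapped. The log2 difference was -0.09 (95% interval -0.29 to 0.12, limma adjusted p = 0.591). Sorl1, which belongs both to this family and to the VPS10 sorting receptors and steers the amyloid precursor protein App, read 4.14, 4.10 and 4.39 with DMSO. With PTC-209 it read 4.10, 4.21 and 4.10, again with overlap. Its log2 difference was -0.07 (95% interval -0.32 to 0.17, limma adjusted p = 0.722). For Lrp2, Lrp4 and Sorl1, whose brighter group stayed under the median brightness, a small difference would be hard to see.

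The smaller, more distant members went in opposite directions: Lrp12 rose, and Lrp10 and Lrp11 fell. Lrp10, a receptor that cycles between the trans-Golgi network and endosomes, read 7.31, 6.96 and 6.80 with DMSO and 6.57, 6.48 and 6.54 with PTC-209. The control arrays were spread out, yet all lay above the treated ones. The level fell 1.40-fold (log2 difference -0.49, SE 0.132, 95% interval -0.79 to -0.19, limma adjusted p = 0.0236). Lrp11 read 6.18, 6.08 and 6.13 with DMSO and 5.89, 5.79 and 5.61 with PTC-209. Here the controls were tight and the treated arrays spread, again without overlap. It fell 1.29-fold (log2 difference -0.37, SE 0.103, 95% interval -0.60 to -0.13, limma adjusted p = 0.0290).

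Lrp12, a receptor of the same branch as Lrp10, read 6.95, 6.62 and 6.67 with DMSO and 7.25, 7.13 and 7.05 with PTC-209. The lowest treated array stood just above the highest control. It rose 1.32-fold (log2 difference 0.40, SE 0.116, 95% interval 0.14 to 0.66, limma adjusted p = 0.0333). These calls were close to the threshold. The Lrp10 call was lost without PTC-209 replicate 1, 2 or 3 (adjusted p = 0.0527, 0.0818 and 0.0622; 0.00883 to 0.330 over its alternatives). The Lrp11 call was kept without PTC-209 replicate 1 and lost without any other single array (adjusted p from 0.0582 to 0.103; 0.0137 to 0.751 over its alternatives). The Lrp12 call survived dropping DMSO replicate 1 or PTC-209 replicate 3 but not any of the other 4 arrays (adjusted p from 0.0873 to 0.118; 0.00785 to 0.624 over its alternatives).

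Of the 8 genes other than Vldlr, 1 rose, Lrp12, 2 fell, Lrp10 and Lrp11, and 5 did not pass. Among all named genes 12.9% rose and 13.7% fell. Groups were free of overlap for 5 of the 8 genes, against 40.5% of all named genes. Because the 9 were listed with results known, nothing is read from these shares. The median log2 difference was -0.17 for these 8 genes, -0.09 with Vldlr included, and 0.03 for all named genes. Apart from Vldlr, the sizes were ordinary for these arrays: 19.5% of named genes had a larger difference than Lrp10, 24.3% a larger one than Lrp12 and 26.5% a larger one than Lrp11. In a test against a minimum fold change of 1.2, 0 of the 8 rose and 0 fell in limma (0 and 0 at an unadjusted p under 0.05 in that test, against 1 and 4 in the ordinary fit).

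**Figure D2:**
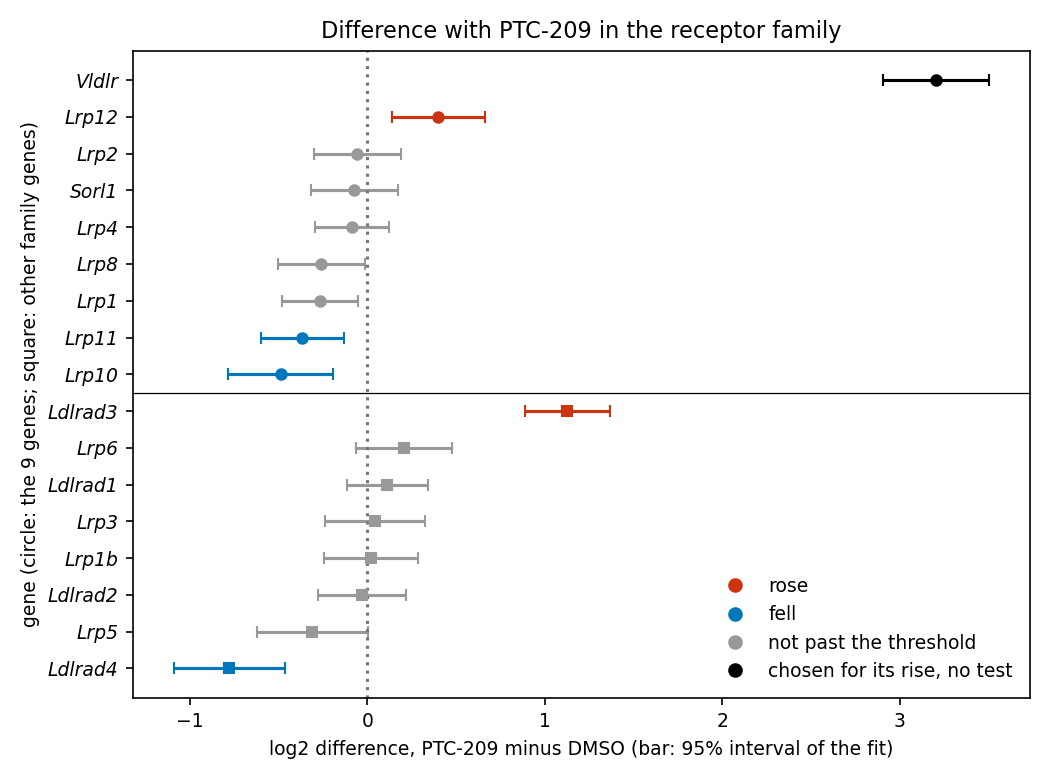
Log2 difference, PTC-209 minus DMSO (x axis), with its 95% interval from the fit, for the 9 receptor genes (circles) and 8 other genes of the family (squares); colour shows the limma call, and Vldlr, chosen for its rise, is black and without a call. Vldlr stands at 3.20, and of the other family genes Ldlrad3 rose by 1.13 and Ldlrad4 fell by 0.78 on the log2 scale.

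Further genes with LDL receptor repeats or of the Lrp series were taken from a list, of which 8 were measured: 1 rose, 1 fell and 6 did not pass. Among all named genes 12.9% rose and 13.7% fell, the shares to set beside this list and those below. All lists were chosen with earlier results known, so nothing is read from their counts. Ldlrad3, a small receptor with LDL receptor class A repeats, rose 2.18-fold, from 5.29 ± 0.03 to 6.42 ± 0.16 (limma adjusted p = 5.25e-05). Ldlrad4, an inhibitor of TGF-beta signalling, fell from 5.87 ± 0.23 to 5.10 ± 0.18 (log2 difference -0.78, limma adjusted p = 0.00257). The Wnt co-receptors Lrp5 and Lrp6 did not pass, with log2 differences of -0.31 (95% interval -0.62 to 0.00323, limma adjusted p = 0.156) and 0.21 (-0.06 to 0.48, limma adjusted p = 0.277). Lrp1b, Lrp3 and Ldlrad2 lay under the median brightness and Ldlrad1 above it, with differences between -0.03 and 0.11. The median of the 8 genes was 0.03, equal to that of all named genes at this rounding.

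Among 20 measured ligands of these receptors, 1 rose, 7 fell and 12 did not pass, with a median log2 difference of -0.06. The shares over all named genes were 12.9% for rises and 13.7% for falls. Dropping PTC-209 replicate 3 left 4 falls. Ccn2, a matricellular protein bound by Lrp1 and Lrp6, fell from 9.16 ± 0.32 to 6.08 ± 0.21 (log2 difference -3.08, limma adjusted p = 1.74e-06). Clu, clusterin, a chaperone-like ligand of Lrp2, Lrp8 and Vldlr, fell 4.55-fold, from 8.86 ± 0.10 to 6.67 ± 0.05 (limma adjusted p = 6.54e-07). Psap, the precursor of the lysosomal saposins, rose 3.14-fold, from 7.90 ± 0.19 to 9.54 ± 0.10 (limma adjusted p = 9.10e-06). Agrn, agrin, the ligand of Lrp4, fell by 0.59 on the log2 scale (limma adjusted p = 0.0321), a call lost when any single array other than DMSO replicate 3 or PTC-209 replicate 1 was dropped. The ligands that define Vldlr did not pass: Reln, Reelin, read 3.73 ± 0.04 and 3.78 ± 0.06, and Apoe, apolipoprotein E, 5.75 ± 0.08 and 5.80 ± 0.12 (limma adjusted p = 0.769 and 0.815). Reln and Apoe were singled out after their values were seen, and Reln lay under the median brightness.

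Of 23 measured adaptors, chaperones and sorting factors, 10 rose, 4 fell and 9 did not pass, with a median of 0.11. Over all named genes 12.9% rose and 13.7% fell, and nothing is read from the counts of a list chosen with results known. Lrpap1, the receptor-associated protein that escorts newly made family members through the endoplasmic reticulum, fell 2.49-fold. Its level went from 7.99 ± 0.04 to 6.67 ± 0.05 (log2 difference -1.31, SE 0.089, limma adjusted p = 6.29e-06). Dab2, an adaptor that couples the receptors' tails to clathrin, fell from 6.99 ± 0.08 to 5.71 ± 0.44 (limma adjusted p = 0.000836), with a wide spread among treated arrays. The mean of its 2 probe sets gave a smaller log2 difference of -0.64. Commd1, of the complex that returns endosomal receptors to the surface, fell by 0.96 on the log2 scale (limma adjusted p = 0.000144). Other genes of that complex, named after their values were seen, went the other way: Ccdc93 rose by 0.68 and Ccdc22 by 0.39 (limma adjusted p = 0.00136 and 0.0430). The Ccdc22 call was close to the threshold, and neither call was followed singly under other settings. Gga2, an adaptor between the trans-Golgi network and endosomes, rose by 0.73 (limma adjusted p = 0.00345). The core retromer genes, which retrieve Sorl1 from endosomes and were singled out after their values were seen, all passed as rises. The log2 differences were 0.66 for Vps35, 0.66 for Vps26a, 0.61 for Vps26b and 0.34 for Vps29 (limma adjusted p = 0.0011, 0.00066, 0.00256 and 0.0225). The Vps29 call was lost after cyclic loess and on dropping any single array other than replicate 1 of either group.

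Genes that degrade or cleave the receptors were divided: of 14 measured, 3 rose, 5 fell and 6 did not pass (median 0.06). Beside these stand 12.9% rises and 13.7% falls over all named genes. Mmp14, a membrane metalloprotease that sheds Lrp1, fell from 7.71 ± 0.24 to 6.71 ± 0.18 (limma adjusted p = 0.000693). Bace1, the beta-secretase, fell by 0.45 and Ncstn, a gamma-secretase subunit, by 0.42 on the log2 scale (limma adjusted p = 0.0229 and 0.0310). Ube2d2a, a ubiquitin-conjugating enzyme, rose by 0.57 (limma adjusted p = 0.00185), but the mean of its 2 probe sets gave 0.26 and was not called. Dropping DMSO replicate 1, PTC-209 replicate 2 or PTC-209 replicate 3 ended the Bace1 call, and each of these or DMSO replicate 2 ended that of Ncstn. The 5 falls became 3 when DMSO replicate 1 was dropped, 2 for PTC-209 replicate 2 and 3 for PTC-209 replicate 3. The 3 rises became 1 when DMSO replicate 3 or PTC-209 replicate 1 was dropped.

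**Figure D3:**
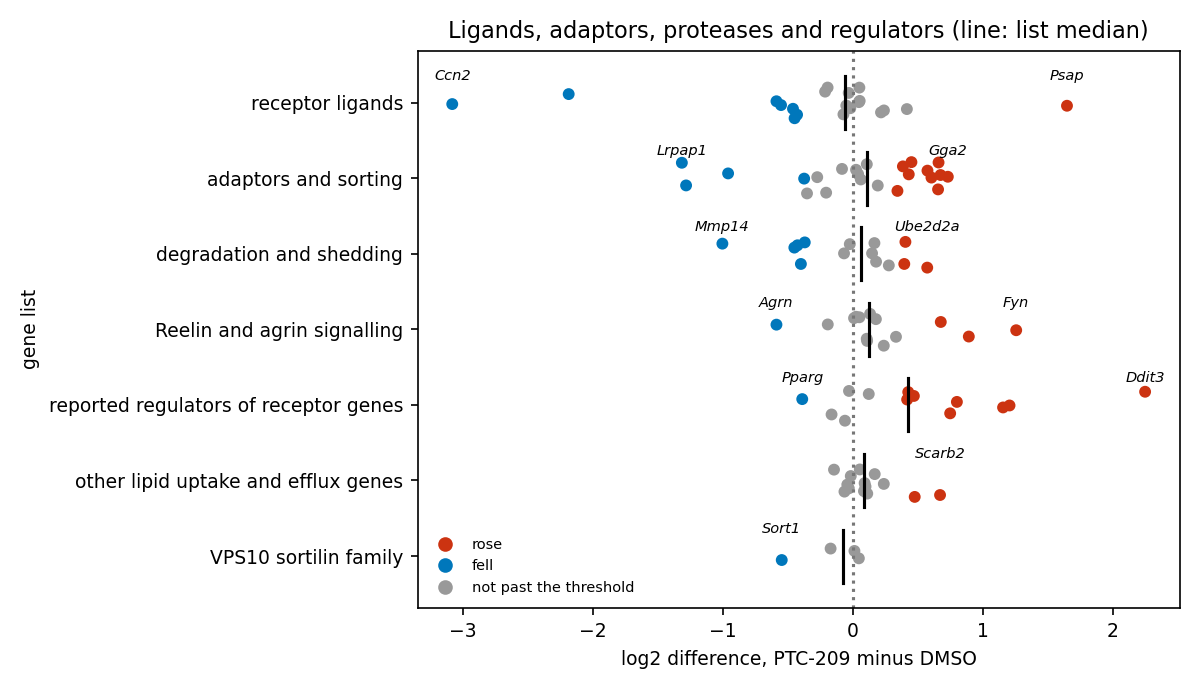
Log2 difference, PTC-209 minus DMSO (x axis), of every measured gene in 7 lists of ligands, adaptors, proteases, signalling partners, regulators and other lipid genes (y axis); points are genes coloured by limma call, black lines are list medians, and the called gene at each end of a list is named. Medians lay between -0.08 and 0.12 except for the regulators, at 0.43. The lists were chosen with earlier results of these arrays known, so the medians are a description.

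In the list of Reelin and agrin signalling, which holds the ligands Reln and Agrn already counted above, 3 of 14 measured genes rose, 1 fell and 10 did not pass (median 0.12). The fall was that of the ligand Agrn. Rises made up 12.9% and falls 13.7% of all named genes. Fyn, the tyrosine kinase that phosphorylates the adaptor of Vldlr and Lrp8, rose 2.39-fold, from 6.55 ± 0.21 to 7.80 ± 0.19 (limma adjusted p = 0.000124). That adaptor, Dab1, read 3.14 ± 0.23 with DMSO and 3.17 ± 0.06 with PTC-209. Dab1 and Reln both lay under the median brightness of 4.33 and were named after their values were seen. Pafah1b1, or Lis1, a dynein regulator, rose by 0.89 and the adaptor Crkl by 0.68 on the log2 scale (limma adjusted p = 0.00024 and 0.000618).

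Among transcription factors reported to act on receptor genes, 8 of 13 measured rose, 1, Pparg, fell and 4 did not pass, with a median of 0.43. This list was chosen with earlier results of these arrays known, so its count and median are a description. Over all named genes 12.9% rose. The largest rises were those of Ddit3, Atf4, Atf5 and Hif1a. Ddit3, or CHOP, rose 4.76-fold, and Atf4 rose 2.31-fold, from 8.52 ± 0.07 to 9.72 ± 0.08 (limma adjusted p = 6.96e-07 and 1.54e-05). Atf5 rose 2.23-fold and Hif1a, the oxygen-regulated subunit of hypoxia-inducible factor 1, 1.74-fold (limma adjusted p = 8.46e-05 and 0.000175). The related hypoxia factor Epas1 did not pass (log2 difference -0.06, limma adjusted p = 0.836). It lay under the median brightness of 4.33 in both groups (4.10 and 4.05), where a small difference would be hard to see. Pparg, which also has a place in the regulation of Vldlr, fell by 0.39 on the log2 scale (limma adjusted p = 0.0106), a call lost with a minimum fold change of 1.2. Epas1 and Pparg were named after their values were seen. Whether any of these factors acted on Vldlr was not tested.

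Most other genes of lipid uptake and efflux did not pass: 2 of 14 rose and 0 fell in limma (0 falls also had an unadjusted p under 0.05), with a median of 0.09. For this list and the next, the shares over all named genes were 12.9% for rises and 13.7% for falls. The 2 lipid genes that rose were Scarb2, a lysosomal membrane receptor, at 0.67 and Npc2, which hands cholesterol out of the lysosome, at 0.48 on the log2 scale (limma adjusted p = 0.00479 and 0.00653). Both calls were lost with a minimum fold change of 1.2. Of the 4 VPS10 relatives of Sorl1, 1 fell, Sort1, sortilin, from 4.94 ± 0.33 to 4.39 ± 0.09 (limma adjusted p = 0.0304), and 3 did not pass. The Sort1 call was lost without PTC-209 replicate 1, 2 or 3.

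The pattern of Vldlr over the 6 arrays was compared with that of every named gene of at least median brightness in its brighter group. The measure was the root mean square difference between the genes' deviations from their own 6-array means. The nearest gene was Hmox1, haem oxygenase (0.145), followed by Fam171b (0.150), Ndrg1, a gene known to respond to hypoxia (0.162), and Ppp1r15a, or GADD34, a stress phosphatase subunit (0.176). Crebrf (0.180) and Arg2, the mitochondrial arginase (0.192), came next. The median over the 11045 genes compared was 1.60. With 6 arrays in 2 groups this likeness mostly reflects a group difference of similar size, which lay between 2.92 and 3.27 on the log2 scale for the 6 genes. Fam171b and Arg2 lay under the median brightness of 4.33 with DMSO (4.29 and 4.12). They entered the comparison only through the PTC-209 arrays (7.29 and 7.14). Since Vldlr was chosen for its rise, the ranking is a description.

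**Figure D4:**
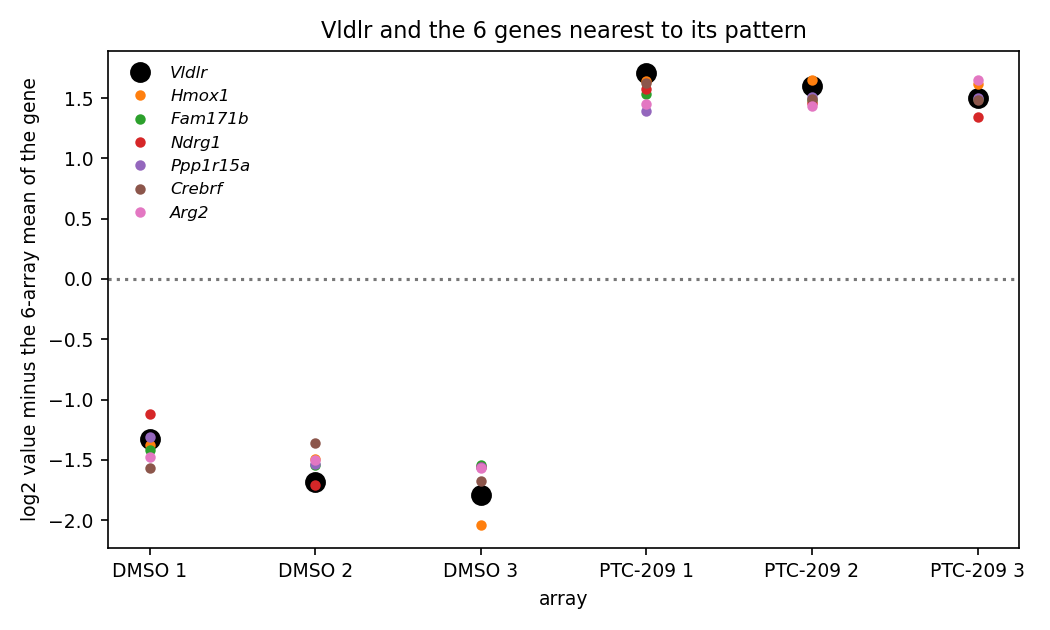
Log2 value minus the gene's own 6-array mean (y axis) on each array (x axis) for Vldlr (large black points) and the 6 genes nearest to its pattern (small points). All 7 genes were below their mean on the 3 DMSO arrays and above it on the 3 PTC-209 arrays.

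The labelled cell type was checked on marker genes. All 7 epithelial markers reached the median brightness of 4.33 in at least 1 group, while of 7 alveolar lung markers only Sftpa1 did. The summed linear level of the epithelial list ranged from 8966 to 10024 on the DMSO arrays and from 5096 to 5804 with PTC-209, and 4 of its genes fell and 1 rose. Of the leukocyte markers 1 of 6 reached the median, Cd68, a lysosomal protein, which rose 6.11-fold (limma adjusted p = 2.53e-07). Ptprc, Csf1r, Adgre1, Itgam and Marco stayed below it. The sum of that list ranged from 216 to 226 with DMSO and from 1069 to 1129 with PTC-209. Cd68 made up most of it on every array, and no other gene of the list passed the threshold. Of the endothelial markers 1 of 5 reached the median, Cdh5, which fell 2.52-fold (limma adjusted p = 3.60e-05). The list's sum, most of it Cdh5, ranged from 721 to 767 and from 274 to 357, and no other endothelial marker passed. Of the fibroblast markers 4 of 7 reached it, with sums of 115 to 127 and 131 to 137 and no member past the threshold. The alveolar sums were 81.0 to 85.4 and 86.0 to 94.4. The part of these shifts in the receptor values was not tested.

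**Figure D5:**
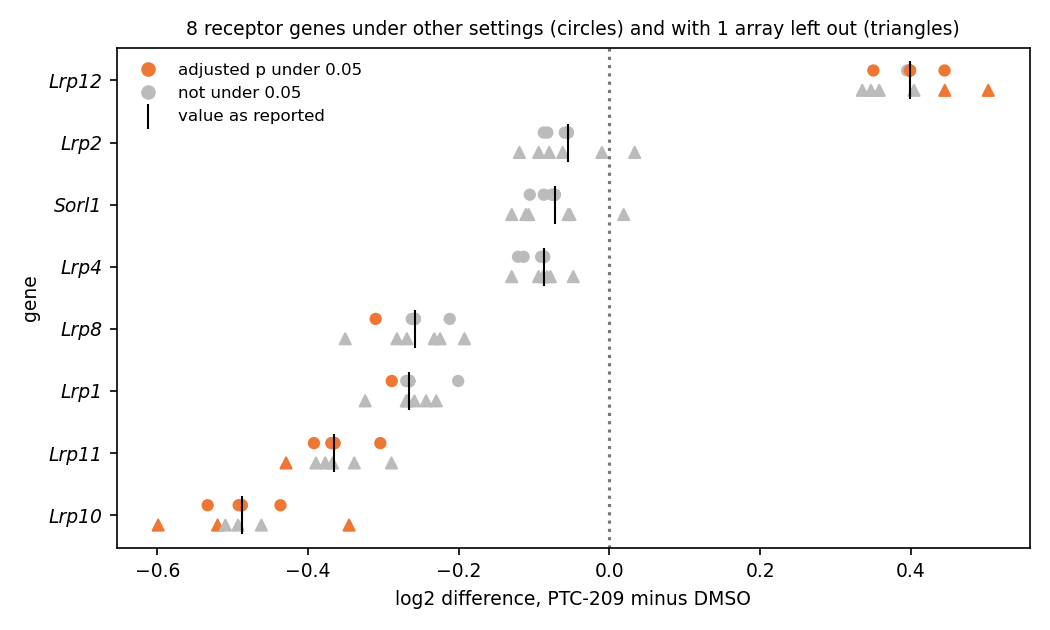
Log2 difference, PTC-209 minus DMSO (x axis), of the 8 genes other than Vldlr (y axis) under 8 other settings (circles) and with 1 of the 6 arrays left out (triangles); orange marks an adjusted p under 0.05, and the black bar is the value as reported. Lrp10, Lrp11 and Lrp12 kept their direction throughout but crossed the threshold, while Lrp2 and Sorl1 changed sign when DMSO replicate 3 was left out.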

How the data were processed

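Per the labels' protocols, Trizol-extracted total RNA was turned into biotinylated cRNA for Affymetrix arrays. The authors deposited log2 expression values for 34760 probe sets on 6 arrays, made with RMA per the submitters' processing notes, without a stated version or genome build. RMA corrects the background, equalises the distributions of the arrays and summarises each probe set, so a change common to most transcripts would be hidden. Array medians lay between 4.07 and 4.14, as on a log2 scale. The free-text sample description, which speaks of embryos, goes against the titles and was not used.

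A block of 6568 control probe sets, recognised by consecutive identifiers and holding 0 listed genes, was left out. Of the 28192 tested, 21640 have 1 gene symbol, 1321 several and 5231 none listed, giving 19937 named genes. Differences were tested with limma 3.58.1 in R 4.3.3 (lmFit, eBayes, treatment as the only term) and adjusted by Benjamini and Hochberg over all tested probe sets. A gene rose or fell at an adjusted p under 0.05. The number of arrays, 3 a group, limits the precision. The fit was tested on simulated data. Figures were drawn with matplotlib 3.10.9.

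The genes, lists, motifs and naming rule were chosen with earlier results of these data known. The rule took the 9 genes, all other measured family genes, from each other list the 4 called genes with the largest difference (all where 5 or fewer were called), and the 6 genes nearest to Vldlr in pattern. Lists are described by counts and medians, with no set test. Alternatives were the replicate number as a block, a trended and robust prior, quantile normalization again, cyclic loess, median centring, leaving out dim probe sets, averaging the probe sets of a gene, a minimum fold change of 1.2, and leaving out each array.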

Additional observations from a re-analysis of the deposited data

How the results depend on the processing

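The log2 difference of Vldlr, which was chosen for its rise, is a description and ranged from 3.11 to 3.34 over 14 alternatives. Counts of rises among the 9 genes include Vldlr, which is no test of that gene. At a count of 1 no other gene of the 9 was called a rise. Lrp4 stayed uncalled with its sign unchanged under the 13 alternatives that kept its probe set. The 3 dim genes Lrp2, Lrp4 and Sorl1 have no value when dim probe sets are left out. With a minimum fold change of 1.2, the rises among the 9 genes were 1 and the falls 0, the rises and falls among all named genes 1270 and 1610, and those in the 7 pathway lists 16 and 6 (27 and 18 as reported). At that setting Lrp10 (-0.49), Lrp11 (-0.37) and Lrp12 (0.40) were not called, since the null hypothesis is wider. Agrn, Bace1, Ncstn, Sort1, Vps29, Scarb2 (adjusted p = 0.0525), Npc2 (0.188) and Pparg were not called there either. The rises were 6 among adaptors and sorting factors, 5 among regulators and 0 among other lipid genes in limma, where 2 had an unadjusted p under 0.05. The falls among the ligands were 2, and those among the genes that degrade or cleave the receptors were 1, with 1 rise. After median centring Lrp12 (0.39, adjusted p = 0.0510) was not called and the rises among the 9 were 1. After cyclic loess 4 of the 9 fell, with Lrp1 (-0.29, adjusted p = 0.0430) and Lrp8 (-0.31, adjusted p = 0.0456) added. That setting also moved all named genes: 3125 fell and 2352 rose, against 2741 and 2565 as reported. The added falls are thus not particular to the receptors. Lrp1 (-0.27) also passed without dim probe sets (adjusted p = 0.0363), where fewer are tested. The cause of the other changes was not tested.

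With 1 array left out, the Lrp12 rise was called only without DMSO replicate 1 or PTC-209 replicate 3. The falls among the 9 genes ranged from 0 to 1, and those among all named genes from 2264 to 2484. The falls in the 7 pathway lists ranged from 11 to 17. The log2 difference ranged from -0.60 to -0.35 for Lrp10, from -0.43 to -0.29 for Lrp11 and from 0.34 to 0.50 for Lrp12. It ranged from -0.12 to 0.033 for Lrp2, from -0.13 to 0.019 for Sorl1, from -0.075 to 0.11 for Lrp1b, from -0.075 to 0.13 for Lrp3, from -0.12 to 0.035 for Ldlrad2 and from -0.000952 to 0.11 for Apoe, so the direction of these uncalled genes is not settled.

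The labels do not say whether arrays of the same replicate number belong together. Deviations of same-numbered arrays correlated weakly and positively, at 0.231, 0.0703 and 0.0733 over probe sets. Of the 6 arrays, 3 correlated best with their own number. Whether same-numbered arrays share a batch was not tested. With the replicate number as a block, Lrp12 rose and Lrp10 and Lrp11 fell among the genes other than Vldlr, as without it. Over all named genes 2689 rose and 2844 fell. The block raised the rises among the ligands from 1 to 2. Low signal limits Lrp2, Lrp4 and Sorl1, and the number of arrays limits all 9 genes.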
